A study of Mus musculus with 6 samples.

Results

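The genes described here are the cytochrome P450 (Cyp) genes of mouse intestinal organoids. They were chosen by name: every protein-coding row of the gene table whose symbol starts with Cyp and a digit, without Cyp51 and without pseudogenes, which gave 99 of 31227 genes. They comprise 49 Cyp2, 20 Cyp4, 9 Cyp3, 3 Cyp1 and 18 genes of other families. Organoids are epithelial cultures that grow in a gel from intestinal stem cells, and every group received EGF, R-spondin1 and Noggin. Bulk RNA-seq covered 3 groups of 2 libraries each: WT, Smad4 KO, and Smad4 KO+TGFb, which received 0.5 nM TGFb. Every title carries 48 h, and the protocol names both 48 h and a further feeding period with TGFb, so the exposure time is uncertain. The labels give no age, strain or sex, do not say how Smad4 was inactivated, and do not say whether WT and Smad4 KO came from different organoid lines, so genotype and line cannot be told apart. They do not tell whether replicates were separate cultures either, and the p-values then measure only the spread between these libraries, which may be technical.

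Cytochrome P450 enzymes are heme proteins that insert an oxygen atom into their substrates. Families 1 to 3 are best known for the oxidation of drugs and dietary chemicals, family 4 for the hydroxylation of fatty acids and eicosanoids, and the higher families for steps in sterol, bile acid, vitamin D, retinoid and steroid metabolism. Most P450 enzymes sit in the endoplasmic reticulum and take electrons from the reductase Por, while a few are mitochondrial and take them from ferredoxin. In the small intestine they are mostly found in absorptive enterocytes, where they form part of the first barrier to swallowed compounds. Smad4 is the partner through which activated SMAD proteins of the TGF-β and BMP pathways act on genes.

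The shared feature of these proteins is the stretch around the cysteine that holds the heme iron. The coding sequences below are shown because they carry that feature in members on which the results turn, with the cysteine codon in capitals. They were read 5′ to 3′ from GENCODE vM21 transcripts (GRCm38).
Cyp2b10: ttctcaacaggaaagcgcattTGTcttggt
Cyp2e1: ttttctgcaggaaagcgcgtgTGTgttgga
Cyp2c65: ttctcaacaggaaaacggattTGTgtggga
Cyp2c66: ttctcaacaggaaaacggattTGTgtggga
Cyp2j6: ttctcaatgggaaagcgagctTGCctggga
Cyp2w1: ttctccgctggtcgccgggtcTGCgttggg
Cyp3a11: tttgggaatggacccaggaacTGCcttggc
Cyp3a13: tttgggagtggaccaaggaacTGCattggc
Cyp3a25: tttggaaatggacccaggaacTGCataggc
Cyp4f14: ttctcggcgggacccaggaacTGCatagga
Cyp4f16: ttttctgccgggcccaggaacTGCatagga
Cyp26b1: tttggcggtggcgtgcggaccTGCctgggc
In Cyp3a11 the stretch lies in exon 12 of 13 (chr5:145858805-145858834, minus strand), and in Cyp26b1 in the last exon, exon 6 (chr6:84574477-84574506, minus strand). In Cyp2b10 it is split over exons 8 and 9 of 9, so that its range, chr7:25917420-25926087 on the plus strand, holds an intron.

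A search for the protein pattern F..G...C.G (a point stands for any residue) found it exactly once in 95 of the 99 proteins and not in Cyp20a1, Cyp2s1, Cyp3a59 and Cyp8b1. The cysteine codon was TGC in 57 members and TGT in 38, and a median of 55 residues followed it (range 52 to 78). Cyp2c65 and Cyp2c66 shared all 30 bases of the stretch. Cyp3a11 matched Cyp3a13 and Cyp3a25 at 27 of 30 bases each, whereas Cyp2b10 matched Cyp26b1 at 14. Over the whole protein, members of the same subfamily had a median identity of 70.6% (279 pairs, range 51.2 to 100%), members of other subfamilies of the same family 39.6%, and members of other families 22.5%. For 33 members another member was at least 90% identical, among them Cyp2c65 with Cyp2c66 (93.7%), Cyp2c68 with Cyp2c40 (97.1%), Cyp3a11 with Cyp3a41a (91.7%), Cyp3a25 with Cyp3a59 (95%), Cyp4f16 with Cyp4f37 (93.5%) and Cyp2c38 with Cyp2c39 (92%). How reads were divided between such copies is uncertain, and this applies to every value of these genes below.

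Library totals ran from 40.55 to 50.7 M (1e6) units. Units are the deposited estimated counts, and about 4 of them appear to stand for a fragment. Smad4 stood at 99.4 and 109 TMM-scaled units per 1e6 (CPM) in WT, 21.7 and 23.1 in Smad4 KO, and 25.2 and 29.5 in treated Smad4 KO, counted over the whole gene. The labelled epithelium was checked by markers. Of 8 fibroblast and endothelial markers 5 were at 0 in all libraries, including Col3a1 and Dcn. The leukocyte list summed to 2.04 to 2.26 CPM, with Cd79a at 0. Of its 6 markers 3 were tested. By edgeR, 1 was called higher in Smad4 KO than in WT, and 1 higher in treated Smad4 KO than in WT.

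Of the 99 P450 genes, 27 had no count in any library. A further 25 had some counts but did not pass the filter on low counts: none exceeded 32 units in a library, and 17 of them stayed at or under the floor of 12 units (about 3 fragments) in every group. The remaining 47 were tested. A gene can pass the filter through the group where it is high, so the 47 are not a sample of all members. After TMM scaling, the 99 genes summed to 1649 and 1702 CPM in WT, to 3996 and 3939 CPM in Smad4 KO, and to 2635 and 2675 CPM in treated Smad4 KO. The 3 groups did not overlap: the sum was 2.37-fold higher in Smad4 KO than in WT, and with TGFb it stood between both, at 1.58 times WT. Without the 33 members with a near-identical copy the Smad4 KO sum was 2.15 times that of WT.

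**Figure D1:**
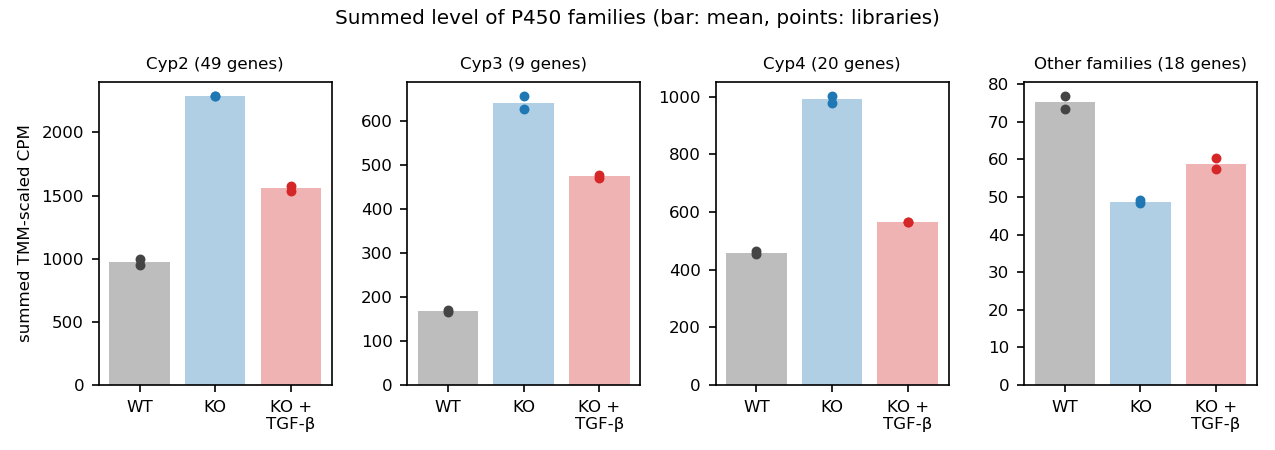
Summed TMM-scaled CPM of the P450 families in WT, Smad4 KO (KO) and Smad4 KO with TGFb (bars, mean of 2 libraries; points, single libraries), each panel with its own axis from 0. The Cyp2, Cyp3 and Cyp4 sums were highest in Smad4 KO and intermediate with TGFb, while the sum of the other families was lowest in Smad4 KO.

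By family, the Cyp2 genes summed to 973 ± 29 CPM in WT, 2286 ± 2.2 in Smad4 KO and 1557 ± 25 in treated Smad4 KO (mean ± SD, n = 2). The Cyp3 sum had the highest ratio of these, 3.81, from 168 ± 4.4 to 642 ± 22 CPM, and stood at 474 ± 5 CPM with TGFb. The Cyp4 genes went from 458 ± 6.2 to 990 ± 17 CPM and stood at 564 ± 0.25 CPM with TGFb. The 18 genes of other families summed to 75.2 ± 2.4 CPM in WT, 48.8 ± 0.55 in Smad4 KO and 58.9 ± 2 with TGFb. Of these 18, 7 had no counts, 6 were tested, and the 2 called lower in Smad4 KO, Cyp26b1 and Cyp39a1, account for most of the difference in the sum. These sums are descriptions, and the differences between families were not tested.

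For a level per kb of exon, CPM were divided by the merged length of all annotated exons of a gene. The order of genes therefore depends on that length, which is 5093 bases for Cyp3a11 and 2083 for Cyp3a25. On this scale Cyp4f14 was the highest member in each group. It stood at 109 and 110 CPM per kb in the WT libraries, 272 and 257 in Smad4 KO and 134 and 133 with TGFb. The order behind it differed. In WT, Cyp2d26 (73.2 and 83.3 CPM per kb) and Cyp2c65 (73.1 and 74.1) came next and were not separated by their spread. In Smad4 KO, Cyp2c65 (177 and 186) stood clear of Cyp2c66 (145 and 145) and Cyp2b10 (148 and 142), which overlapped. With TGFb, Cyp3a13 (104 and 106) held the third place, and Cyp2b10 (101 and 99.3) and Cyp2c66 (101 and 98.1) overlapped below it. The 12 highest members held 84.4%, 88.6% and 87.3% of the summed CPM per kb in WT, Smad4 KO and treated Smad4 KO.

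Gene by gene, Smad4 KO was compared with WT to see what loss of Smad4 changes without added TGFb. Of the 47 tested members, 21 were higher in Smad4 KO (edgeR, adjusted p under 0.05) and 3 were lower. Over all 15503 genes tested, 16.9% were called higher and 13.4% lower. The median log2 fold change of the tested members was 0.67, beside -0.02 over all genes. By family, 14 of 26 tested Cyp2 genes, 3 of 4 Cyp3 genes and 4 of 10 Cyp4 genes rose. None of the 6 tested genes of other families was called higher, nor was Cyp1b1, the single tested Cyp1 gene. Cyp21a1, among these 6, and Cyp1b1 had no counts in WT or Smad4 KO, so neither could be called in this comparison. Both are among the 47 tested. The 3 that fell were Cyp26b1, Cyp2e1 and Cyp39a1.

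Treated Smad4 KO was then compared with Smad4 KO, which sets TGFb against its absence in cells short of Smad4. Of the 47 tested members, 20 were lower with TGFb and 3 were higher, against 8.48% lower and 7.78% higher over all genes tested. The median log2 fold change was -0.53, beside -0.01 over all genes. Those lower were 11 Cyp2, 3 Cyp3 and 6 Cyp4 genes, and those higher were Cyp2w1, Cyp27a1 and Cyp21a1. This comparison shares the Smad4 KO libraries with the first, so the directions in both are not independent. Treated Smad4 KO against WT gave 18 members higher and 9 lower, against 20.7% and 19% over all genes tested, with a median of 0.29 beside -0.02. No WT group with TGFb was analysed here.

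**Figure D2:**
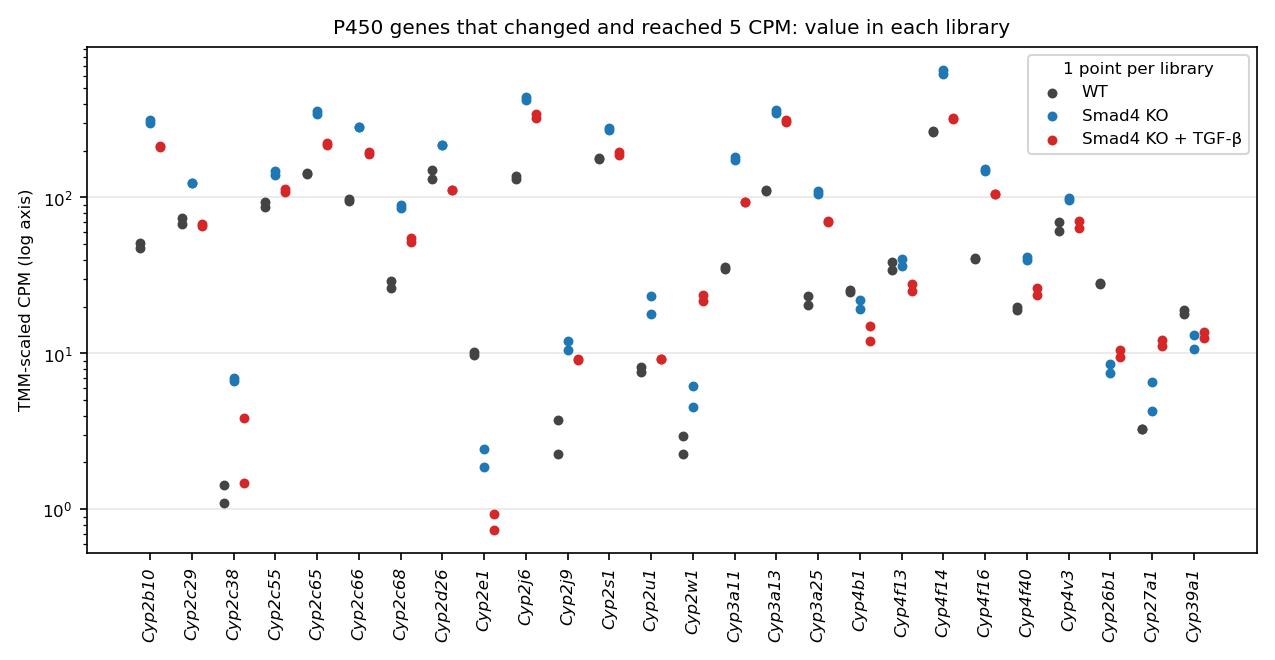
TMM-scaled CPM (log axis) in each of the 6 libraries for the 26 P450 genes that passed in any comparison and reached a mean of 5 CPM in a group. Most points of Smad4 KO lie above those of WT, with the treated libraries between them or near WT. Cyp2w1 and Cyp27a1 are highest with TGFb, and Cyp2e1 and Cyp26b1 are highest in WT.

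**Figure D3:**
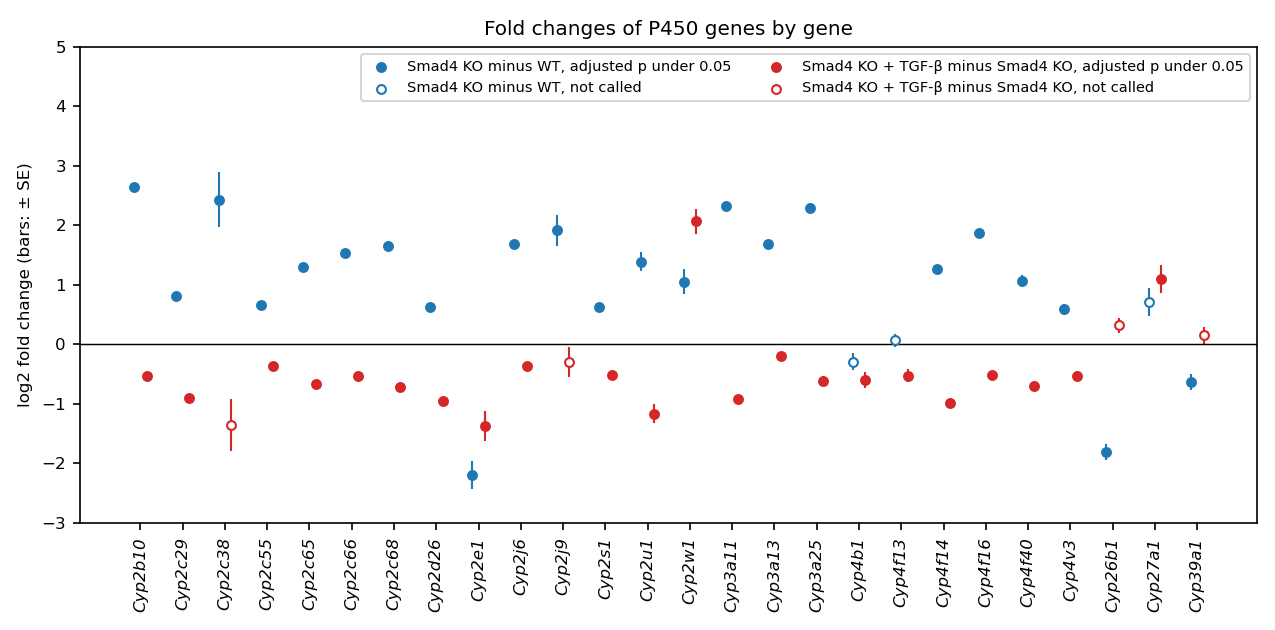
Fitted log2 fold changes of the same 26 genes (points, edgeR estimate; bars, ± SE; filled, adjusted p under 0.05) for Smad4 KO against WT and for treated Smad4 KO against Smad4 KO. Cyp2b10 has the largest rise in the first comparison at 2.64, and Cyp2w1 the largest in the second at 2.07. Both comparisons use the same Smad4 KO libraries.

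Cyp2b10, the classical target of the receptor CAR (Nr1i3), was at 47.3 and 51 CPM in WT, 313 and 299 in Smad4 KO, and 214 and 210 with TGFb. All libraries of a group stood apart from those of the other groups. Its rise in Smad4 KO was 6.23-fold (log2 fold change 2.64 ± 0.06 SE, edgeR adjusted p = 1.4e-06). With TGFb it was 1.45-fold lower than in Smad4 KO (-0.53 ± 0.05, adjusted p = 0.0013) and still 4.31-fold above WT (adjusted p = 2e-06). It was the only 1 of 5 Cyp2b genes to be tested.

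Cyp3a11, which oxidises many drugs and is a target of the receptor PXR (Nr1i2), stood at 34.9 and 35.8 CPM in WT, 181 and 174 in Smad4 KO, and 94.2 and 93.2 with TGFb. It rose 5.03-fold in Smad4 KO (2.33 ± 0.06, edgeR adjusted p = 1.9e-06) and was 1.89-fold lower with TGFb (-0.92 ± 0.05, adjusted p = 0.00014). Cyp3a25, of the same subfamily, followed the same order of groups, with 20.6 and 23.4, then 110 and 105, then 70.3 and 70 CPM. It rose 4.88-fold (adjusted p = 9.9e-06) and was 1.53-fold lower with TGFb (adjusted p = 0.0035).

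Cyp3a13, which lies on chromosome 5 (chr5:137892932-137921619) outside the Cyp3a cluster, was the highest of the subfamily. Its values were 110 and 112 CPM in WT, 365 and 347 in Smad4 KO, and 306 and 314 with TGFb, so that the treated libraries lay nearer to Smad4 KO than to WT. The rise was 3.22-fold (1.69 ± 0.04, edgeR adjusted p = 2.7e-06). The difference with TGFb was 1.15-fold (-0.20 ± 0.04, adjusted p = 0.024), and this call was lost without Smad4 KO replicate 1 (adjusted p = 0.114), without treated replicate 1 (0.132), without treated replicate 2 (0.081) and with a replicate block (0.054). Of the other 6 Cyp3a genes, Cyp3a59 was tested and not called, 4 were too low to test and 1 had no counts.

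The Cyp2c genes, which oxidise drugs and convert arachidonic acid to epoxides and hydroxy acids, formed the largest block. Of 15, 11 were tested and 4 were at 0 throughout. In Smad4 KO 7 rose and none fell, and with TGFb 5 were lower than in Smad4 KO. The subfamily summed to 431 ± 15 CPM in WT, 997 ± 3.7 in Smad4 KO and 649 ± 4.1 with TGFb. Cyp2c65 read 141 and 143 CPM in WT, 341 and 359 in Smad4 KO, and 216 and 225 with TGFb. Its near-identical neighbour Cyp2c66, with the same bases at the heme cysteine, read 95.6 and 98.5, then 282 and 282, then 196 and 191 CPM. Both rose in Smad4 KO, 2.47-fold and 2.91-fold (edgeR adjusted p = 9.2e-06 and 3.7e-06), and both were lower with TGFb, 1.59-fold and 1.46-fold (adjusted p = 0.00027 and 0.00049).

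Cyp2c68 rose 3.16-fold, from 26.4 and 29.1 to 89.1 and 86.2 CPM (edgeR adjusted p = 2.9e-05), and stood at 51.9 and 55.3 CPM with TGFb. Cyp2c29 and Cyp2c55 rose less, 1.76-fold and 1.59-fold. Cyp2c29 had 67.3 and 73.5 CPM in WT, 124 and 124 in Smad4 KO, and 65.2 and 67.6 with TGFb, so its treated and WT ranges overlapped (adjusted p = 0.356). Cyp2c55 had 87.4 and 93.1, then 147 and 139, then 113 and 109 CPM, and its lower value with TGFb (adjusted p = 0.0086) was not called without treated replicate 2 (0.059). Cyp2c38, near 1 CPM in WT (1.43 and 1.1), reached 6.95 and 6.69 CPM in Smad4 KO and read 3.84 and 1.48 with TGFb. Its rise (adjusted p = 0.0096) was lost without WT replicate 2 (0.06).

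Some Cyp2c genes were called on few counts and are named here after their values were seen. Cyp2c40 was at 0 in both WT libraries, at 0.331 and 0.545 CPM in Smad4 KO and at 0.208 and 1.07 with TGFb. Fold values against a floor use the mean of the higher group and leave out its spread. With WT at a floor of 3 fragments over the group, the Cyp2c40 mean was 3.51-fold higher in Smad4 KO and 5.13-fold higher with TGFb. The first of these calls (edgeR adjusted p = 0.035) was lost on leaving out any WT or Smad4 KO library, or treated replicate 2 (0.069 to 0.111) and with a replicate block (0.05), and the second (0.022) without WT replicate 1 (0.075), WT replicate 2 (0.069) or treated replicate 2 (0.111). Cyp2c70 had 0.821 and 1.39 CPM in WT, 0.102 and 0.198 in Smad4 KO, and 0 and 0.0912 with TGFb, and was called lower with TGFb than in WT (adjusted p = 0.032). This call was lost without WT replicate 1 (0.089), WT replicate 2 (0.162) or treated replicate 1 (0.089).

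Along the chromosome, the Cyp2c levels were uneven. The 14 genes of the cluster (chr19:39007019-40187333, 1180 kb) begin with Cyp2c55, Cyp2c65, Cyp2c66 and Cyp2c29, which all reached over 5 CPM, and of the following 10 Cyp2c38 and Cyp2c68 did. In the Cyp3a cluster (chr5:145345279-146113287, 8 genes) the neighbours Cyp3a11 and Cyp3a25 carried nearly all of the signal. In the Cyp2j cluster (chr4:96027534-96664154, 8 genes) it came from Cyp2j6 and, far lower, Cyp2j9, also neighbours. The Cyp4f cluster (chr17:32452723-32947402, 8 genes) had 4 members over 5 CPM, Cyp4f16, Cyp4f40, Cyp4f14 and Cyp4f13. Of the 99 members, 76 lay in 10 groups of 2 or more members near each other. Some of these groups hold only 2 genes or mix subfamilies, such as Cyp1a1 and Cyp1a2 with Cyp11a1.

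**Figure D4:**
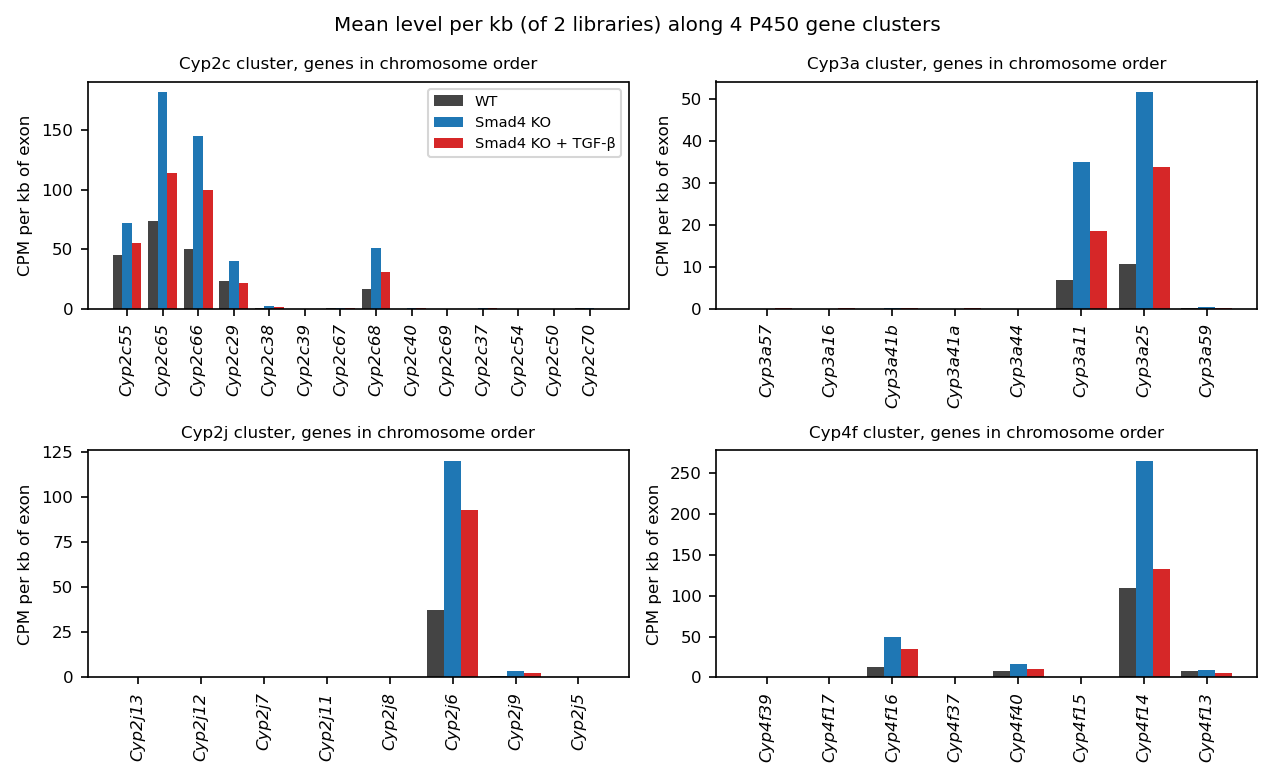
Mean CPM per kb of exon (2 libraries per group) for the genes of the Cyp2c, Cyp3a, Cyp2j and Cyp4f clusters, in the order in which they lie on the chromosome. In the Cyp3a cluster the signal comes from a pair of neighbours, and in the Cyp2j cluster nearly all of it comes from Cyp2j6. Several genes of the Cyp2c and Cyp4f clusters carry the signal there. Cyp4f14, Cyp2c65, Cyp2j6 and Cyp3a25 lead their clusters in Smad4 KO on this scale. In CPM not divided by exon length, Cyp3a11 (mean 177) was above Cyp3a25 (107) in Smad4 KO.

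Among the other Cyp2 genes, Cyp2j6, a P450 of the arachidonic acid epoxygenase subfamily that is known for its level in the gut, stood at 132 and 137 CPM in WT, 424 and 440 in Smad4 KO, and 325 and 345 with TGFb. It rose 3.22-fold (1.69 ± 0.05, edgeR adjusted p = 3.6e-06) and was 1.29-fold lower with TGFb (adjusted p = 0.0033), with no overlap between groups. Cyp2j9, next to it, rose from 2.25 and 3.74 to 10.6 and 12 CPM (3.78-fold, adjusted p = 0.0023) and was at 9.09 and 9.26 CPM with TGFb, which did not differ past the threshold from Smad4 KO (adjusted p = 0.49). Cyp2u1, a fatty acid hydroxylase, read 8.21 and 7.6, then 23.5 and 17.9, then 9.23 and 9.16 CPM. It rose 2.62-fold (adjusted p = 0.0014) and was 2.25-fold lower with TGFb (adjusted p = 0.0048).

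Cyp2s1, a P450 of epithelia, rose 1.54-fold (180 and 176 to 277 and 271 CPM, edgeR adjusted p = 0.00019) and was at 187 and 197 CPM with TGFb. Cyp2d26 was the only 1 of 8 Cyp2d genes that changed. It had 131 and 149 CPM in WT, 216 and 218 in Smad4 KO, and 112 and 111 with TGFb, the treated libraries thus lying below WT. The last difference was 1.26-fold (adjusted p = 0.0096) and was lost without treated replicate 2 (0.052).

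Cyp2w1 was highest with TGFb. This P450 is known from fetal gut and from colorectal tumours. It was at 2.25 and 2.94 CPM in WT, 6.21 and 4.56 in Smad4 KO, and 21.8 and 23.6 with TGFb. With TGFb it was 4.21-fold above Smad4 KO (2.07 ± 0.21, edgeR adjusted p = 0.0014) and 8.74-fold above WT (adjusted p = 0.0001). Its 2.08-fold rise in Smad4 KO (adjusted p = 0.012) was lost when WT replicate 1 (0.064) or Smad4 KO replicate 1 (0.052) was left out.

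Cyp2e1, which oxidises ethanol and other small molecules, was the only Cyp2 gene called lower in Smad4 KO. It had 10.2 and 9.72 CPM in WT, 2.44 and 1.88 in Smad4 KO, and 0.74 and 0.935 with TGFb, a fall in each group with no overlap. Smad4 KO was 4.6-fold below WT (-2.20 ± 0.24, edgeR adjusted p = 0.00097), and treated Smad4 KO was 11.9-fold below WT (-3.57 ± 0.26, adjusted p = 0.00011). The step with TGFb (2.58-fold, adjusted p = 0.014) was lost without Smad4 KO replicate 1 (0.055), without treated replicate 1 (0.075), and when only the 4 libraries compared were fitted (0.083).

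The Cyp4 genes hydroxylate fatty acids and eicosanoids at the end of their chain. Of the 9 Cyp4f genes 7 were tested. Cyp4f14, which inactivates leukotriene B4, was at 263 and 266 CPM in WT, 657 and 621 in Smad4 KO, and 324 and 321 with TGFb. It rose 2.41-fold (1.27 ± 0.04, edgeR adjusted p = 4.6e-06) and was 1.98-fold lower with TGFb (-0.98 ± 0.04, adjusted p = 3.6e-05), close to WT but still 1.22-fold above it (adjusted p = 0.0015). Cyp4f16 rose more, 3.68-fold, from 41 and 40.6 to 147 and 153 CPM (adjusted p = 3.6e-06), and stayed higher with TGFb, at 105 and 105 CPM, 2.57-fold above WT (adjusted p = 8.4e-06). Cyp4f40 rose 2.1-fold (18.9 and 19.9 to 39.8 and 41.5 CPM, adjusted p = 0.00043) and was at 23.6 and 26.4 CPM with TGFb. Its 1.29-fold difference from WT (adjusted p = 0.024) was lost without WT replicate 1 (0.106), WT replicate 2 (0.064) or treated replicate 2 (0.12).

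Cyp4f13 had 38.7 and 34.3 CPM in WT and 36.2 and 40.4 in Smad4 KO, with overlapping ranges, and was lower with TGFb at 25.2 and 27.7 CPM (1.45-fold against Smad4 KO, edgeR adjusted p = 0.019). This call was lost without Smad4 KO replicate 2 (0.097), treated replicate 1 (0.105) or treated replicate 2 (0.053), and its difference from WT (0.015) without WT replicate 1 (0.087) or treated replicate 1 (0.086). Cyp4b1 read 24.8 and 25.7, then 19.3 and 21.9, then 12.1 and 15.1 CPM and was 1.86-fold below WT with TGFb (adjusted p = 0.0029). Neither Cyp4f13 (adjusted p = 0.672) nor Cyp4b1 (0.16) was called between Smad4 KO and WT. The 1.52-fold difference of Cyp4b1 between treated and untreated Smad4 KO (adjusted p = 0.031) held only with all 6 libraries or without treated replicate 2 among the fits that left libraries out (0.059 to 0.14 in the others). Cyp4v3 rose 1.5-fold (60.8 and 69.2 to 98.9 and 96.3 CPM, adjusted p = 0.0035) and was at 70.9 and 64.1 CPM with TGFb, a fall that was lost without treated replicate 2 (0.053).

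The Cyp4a genes, fatty acid hydroxylases that follow the receptor PPARα in liver, were nearly silent: the 8 genes summed to 1.71 CPM in WT, 0.3 in Smad4 KO and 0.298 with TGFb. Cyp4a10, at 1.18 and 1.69 CPM in WT, was at 0.127 and 0.0991 CPM in Smad4 KO and at 0 and 0.114 with TGFb. Smad4 KO against WT missed the threshold (edgeR adjusted p = 0.056) but was called with DESeq2 (0.0051), with values divided by 4 (0.0079), with only the 4 libraries compared (0.013), with no filter on low counts (0.042), and without treated replicate 1 (0.02) or 2 (0.021). The treated group was called lower than WT (adjusted p = 0.026), which was lost without WT replicate 1 (0.083) or WT replicate 2 (0.125). Cyp4f15 had 1.85 and 1.37 CPM in WT and 0.509 and 0.205 with TGFb. Its call (adjusted p = 0.028) was lost without WT replicate 1 (0.128), WT replicate 2 (0.064) or treated replicate 2 (0.1). Both are named after their values were seen.

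Among the members with set roles in the metabolism of signalling molecules, the gene for retinoic acid clearance fell most. Cyp26b1, an enzyme that degrades retinoic acid, was at 28.4 and 27.9 CPM in WT, 8.6 and 7.46 in Smad4 KO, and 9.46 and 10.5 with TGFb. Both Smad4 KO groups stood well below WT. The fall was 3.5-fold in Smad4 KO (-1.81 ± 0.13, edgeR adjusted p = 0.00017), and 2.81-fold with TGFb (adjusted p = 0.00021). The 2 groups short of Smad4 did not differ past the threshold (log2 fold change 0.32 ± 0.13, adjusted p = 0.159). Cyp26a1 and Cyp26c1 were too low to test.

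Genes that supply retinoic acid moved as well. Of 12 retinoid partners 9 were tested, of which 7 rose in Smad4 KO and none fell. Over all genes tested, 16.9% were called higher and 13.4% lower in Smad4 KO, here and for each gene list below. Aldh1a1, which makes retinoic acid, rose from 86.1 and 91.7 to 600 and 580 CPM and was at 322 and 318 CPM with TGFb. Rbp2, the retinol-binding protein of enterocytes, rose from 104 and 97.9 to 774 and 710 CPM and was at 465 and 486 CPM with TGFb. With TGFb 4 partners were lower than in Smad4 KO and 2 were higher, against 8.48% and 7.78% over all genes tested. Besides Aldh1a1 and Rbp2, those lower were the retinol dehydrogenase Rdh7 (23.3 and 26.1 CPM in WT, 46.7 and 47.3 in Smad4 KO, 14.8 and 16.7 with TGFb) and Lrat, which forms retinyl esters (13.8 and 15.9, then 15.2 and 13.9, then 6.76 and 5.56 CPM), both named after their values were seen and both also below WT with TGFb (edgeR adjusted p = 0.0034 and 0.0012). The retinoic acid-forming Aldh1a3 went from 1.18 and 1.39 CPM in WT over 2.57 and 3.32 in Smad4 KO to 22.4 and 25.1 CPM, and the retinol dehydrogenase Rdh10 from 72.6 and 67.1 over 117 and 117 to 239 and 230 CPM (edgeR adjusted p = 0.0002 and 0.00014 against Smad4 KO).

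Of the 6 bile acid and oxysterol genes, 2 were tested. Cyp39a1, which hydroxylates 24-hydroxycholesterol, fell 1.55-fold from 18 and 19 CPM in WT to 10.7 and 13.2 in Smad4 KO (edgeR adjusted p = 0.018) and was at 13.8 and 12.6 CPM with TGFb (adjusted p = 0.037 against WT). The first call was lost without WT replicate 1 (0.062), WT replicate 2 (0.086) or Smad4 KO replicate 1 (0.08), and the second without any WT or treated library (0.089 to 0.157) and with a replicate block (0.056). Cyp27a1, the mitochondrial sterol 27-hydroxylase, was at 3.3 and 3.29 CPM in WT, 4.3 and 6.52 in Smad4 KO, and 12.2 and 11.1 with TGFb. It was 3.53-fold above WT with TGFb (1.82 ± 0.24, adjusted p = 0.0014). Its higher value in Smad4 KO than in WT missed the threshold (adjusted p = 0.062) but was called with DESeq2 (0.047). The 2.15-fold step from Smad4 KO to the treated group (adjusted p = 0.022) was lost without Smad4 KO replicate 1 (0.06), treated replicate 1 (0.107) or treated replicate 2 (0.075). Cyp7a1, Cyp7b1, Cyp8b1 and Cyp46a1 were too low to test or had no counts.

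Of the vitamin D genes, the 25-hydroxylase Cyp2r1 (1.34 and 1.73 CPM in WT, 2.8 and 2.21 in Smad4 KO) and the 1α-hydroxylase Cyp27b1 (under 0.6 CPM in each library) were tested and not called, and the 24-hydroxylase Cyp24a1 had no counts. Of 6 steroid hormone genes only Cyp21a1 was tested. This steroid 21-hydroxylase, best known from the adrenal, had no counts in WT and Smad4 KO and 1.62 and 1.28 CPM with TGFb. Against the floor of 3 fragments over a group its mean was 9.61-fold above Smad4 KO (edgeR adjusted p = 0.022) and 11.6-fold above WT (adjusted p = 0.0091). The first call was lost on leaving out any Smad4 KO or treated library (0.051 to 0.141) and with a replicate block (0.07), and the second without treated replicate 1 (0.07) or 2 (0.054). Of its exons 4.8% overlap Tnxa on the opposite strand.

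The Cyp1 genes, the known targets of the aryl hydrocarbon receptor Ahr, were near or at 0. Cyp1a1 and Cyp1a2 were not tested. Cyp1b1 was at 0 in the 4 libraries without TGFb and at 0.324 and 0.479 CPM with it. On the same floor its mean was 3.22-fold above WT (edgeR adjusted p = 0.048) and 2.66-fold above Smad4 KO (adjusted p = 0.097). The call against WT was lost on leaving out either WT library, either Smad4 KO library or treated replicate 1 (0.06 to 0.171), with no filter on low counts (0.101) and with a replicate block (0.127). Without treated replicate 2 the gene did not pass the filter and was not tested. The receptor itself was measured at 21.7 and 25.6 CPM in WT, 34.7 and 43.5 in Smad4 KO, and 56 and 49.4 with TGFb. Of 7 genes of its pathway 6 were tested, and 2 rose in Smad4 KO, Ahr (adjusted p = 0.011, lost without WT replicate 1, 0.064) and the quinone reductase Nqo1 (30 and 25.9 to 71 and 68.9 CPM). None fell. With TGFb none was higher than in Smad4 KO and 1 was lower, the Ahr target Tiparp, which read 26.5 and 28.2 CPM in WT, 30.8 and 33.4 in Smad4 KO, and 22.1 and 20.1 with TGFb. That call (adjusted p = 0.0089) was lost without Smad4 KO replicate 2 or treated replicate 2 (0.054 each), and the call of Tiparp against WT (0.024) without WT replicate 1 (0.059), WT replicate 2 (0.112) or treated replicate 2 (0.122). Between treated and untreated Smad4 KO, Ahr missed the threshold (adjusted p = 0.098) but was called higher with TGFb by DESeq2 (0.035).

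The partners that P450 enzymes need were counted by list. Of 7 genes listed around microsomal electron supply, 6 rose in Smad4 KO and 1, the cytochrome b5 reductase Cyb5r1, fell. The 6 were Por, Cyb5a, Cyb5b, Cyb5r3, Pgrmc1 and Pgrmc2. The list is broad, and Cyb5b, Pgrmc1 and Pgrmc2 are not established electron donors of microsomal P450 enzymes. Por, the reductase, rose from 254 and 216 to 418 and 451 CPM (edgeR adjusted p = 0.00043) and was at 377 and 383 CPM with TGFb, not past the threshold against Smad4 KO (adjusted p = 0.165). The cytochrome b5 gene Cyb5b rose from 583 and 581 to 1207 and 1198 CPM, and Cyb5a from 125 and 121 to 200 and 203 CPM. The b5 reductase Cyb5r3 rose from 233 and 229 to 376 and 383 CPM and was at 268 and 256 CPM with TGFb. With TGFb 5 of the 7 were lower than in Smad4 KO, against 8.48% over all genes tested. On the mitochondrial side, none of 3 genes rose and ferredoxin (Fdx1) fell, from 26.3 and 25.4 to 18.2 and 18.9 CPM (adjusted p = 0.0099, lost without WT replicate 1 or Smad4 KO replicate 1, 0.057 each). The ferredoxin reductase Fdxr had 17.7 and 16.1 CPM in WT, 15.2 and 13.5 in Smad4 KO, and 12 and 12.6 with TGFb, and was called lower with TGFb than in WT (adjusted p = 0.028), which was lost on leaving out any WT or treated library (0.056 to 0.131).

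Of 12 genes of heme synthesis and breakdown only Alas1, the first enzyme of heme synthesis, rose in Smad4 KO, from 50.5 and 48.3 to 105 and 101 CPM (edgeR adjusted p = 6.8e-05), and none fell. It was unlike most P450 genes in that its level with TGFb, 103 and 97.9 CPM, overlapped Smad4 KO. With TGFb 2 of the 12 were higher and 1 was lower than in Smad4 KO, beside 7.78% and 8.48% over all genes tested. In Smad4 KO against WT those shares were 16.9% and 13.4%. The biliverdin reductase Blvrb was higher, at 51 and 49.6 CPM against 12.2 and 13.5. The heme oxygenase Hmox1 was higher, at 18.1 and 19.7 CPM against 11.5 and 10.2, a call (adjusted p = 0.024) that was lost on leaving out any Smad4 KO or treated library (0.072 to 0.121). Cpox, an enzyme of heme synthesis, was lower, at 99.4 and 96.8 CPM against 145 and 139 (adjusted p = 0.0011). Of 8 epoxide hydrolases and flavin monooxygenases, which work beside P450 enzymes, 6 were tested, of which Ephx1, Ephx2, Fmo4 and Fmo5 were called in both of the first comparisons, which share the Smad4 KO libraries. Fmo5 went from 112 and 99.9 over 343 and 353 to 286 and 287 CPM. Its lower value with TGFb (adjusted p = 0.025) was lost on leaving out any Smad4 KO or treated library (0.077 to 0.116), and that of Ephx2 (0.0092) without Smad4 KO replicate 1 or treated replicate 2 (0.051 each).

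Of 19 nuclear receptors and partner factors, 11 rose in Smad4 KO and none fell, against 16.9% higher and 13.4% lower over all genes tested. With TGFb 7 were lower and 2 higher than in Smad4 KO, against 8.48% and 7.78%. Nr1i2 (PXR) had 59.2 and 58.3 CPM in WT, 100 and 102 in Smad4 KO, and 94.7 and 89.1 with TGFb. Nr1i3 (CAR), named here because of Cyp2b10, had 23 and 26, then 55.7 and 58.4, then 31.9 and 29.3 CPM. Ppara (PPARα), named because of the Cyp4a genes, had 13.6 and 16.3, then 41.1 and 49.4, then 26.9 and 26.1 CPM. It rose in Smad4 KO (edgeR adjusted p = 0.00032), whereas the Cyp4a sum was 1.71 CPM in WT and 0.3 in Smad4 KO. Links between these receptors and P450 genes were not tested. Hnf4a, a regulator of enterocyte and liver genes, changed little, from 903 and 898 to 1020 and 1002 CPM (log2 fold change 0.17 ± 0.02, edgeR adjusted p = 0.0019). Its relative Hnf4g rose from 68.8 and 69 to 215 and 227 CPM and was at 117 and 113 CPM with TGFb. The liver and gut factor Cebpa rose from 90.2 and 83.5 to 205 and 206 CPM and was at 182 and 186 CPM with TGFb. The vitamin D receptor Vdr was at 338 and 356 CPM in WT and 415 and 412 in Smad4 KO, and fell below WT with TGFb, to 220 and 224 CPM (adjusted p = 5.5e-05).

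In the 250 bases before the RefSeq start (GRCm38.p6), 76 members had a promoter to search, and motifs were sought on both strands. The motif CAAAGTCCA, known for HNF4 binding, was in 11 of them (14.5%), against 0.4% of 27025 promoters of all genes. The TATA box letters TATAAA were in 36.8% of members and 13% of all, the nuclear receptor half-site AGGTCA in 22.4% and 13.8%, AGTTCA in 15.8% and 11.9%, and the aryl hydrocarbon receptor core GCGTG in 19.7% and 28.2%. None of the 11 CAAAGTCCA matches overlapped another of these motifs. Members of 1 subfamily share promoter sequence by descent, so these matches are not independent. The windows below show the motif, in capitals, in the Cyp2c and Cyp3a promoters of members that rose and in 2 copies.
Cyp2c65: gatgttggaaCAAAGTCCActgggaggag
Cyp2c68: atcattgaaaCAAAGTCCAattggaagag
Cyp2c40: atcattgagaCAAAGTCCAtttggaagag
Cyp2c67: atcattgagaCAAAGTCCAtttggaagca
Cyp3a11: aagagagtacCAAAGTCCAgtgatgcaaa
Cyp3a41a: aagagacgacCAAAGTCCAggtgatgcag
The motif began 116 bases before the start in Cyp2c65 (chr19:39060880-39060908, plus strand), 77 in Cyp2c68 (chr19:39741160-39741188, minus strand) and 109 in Cyp3a11 (chr5:145879945-145879973, minus strand). Of the 11 members 3 reached 5 CPM, and 4 rose in Smad4 KO, Cyp2c65, Cyp2c68, Cyp3a11 and, on few counts, Cyp2c40. Of the 65 members without it 22 reached 5 CPM, and 16 rose. Both sets include members that were not tested and so could not be counted as rising. Among the 11 these are Cyp2c69, Cyp3a16, Cyp3a41a, Cyp3a41b and Cyp8b1. Whether the motif goes with a rise was not tested. Cyp2c67 and Cyp3a41a carry the motif, and Cyp2c67 was not called in any comparison while Cyp3a41a was not tested. Cyp2c70 carries it too and went the other way, on few counts. It was called lower with TGFb than in WT (log2 fold change -4.51, edgeR adjusted p = 0.032). Its lower value in Smad4 KO (-2.86) missed the threshold with edgeR on all 6 libraries (adjusted p = 0.112). It was called with edgeR on only the 4 libraries compared (0.041) and with DESeq2 (0.047).

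Markers of absorptive cells moved with the P450 genes. Of 25 enterocyte markers 23 rose in Smad4 KO and none fell, against 16.9% higher and 13.4% lower over all genes tested. With TGFb 21 were lower than in Smad4 KO and 2 higher, against 8.48% and 7.78%. The list holds Rbp2 and Ephx2, which are also counted above, and none of its genes was at 0 throughout. The markers summed to 8307 to 8323 CPM in WT, 25122 to 25387 in Smad4 KO and 16850 to 16903 with TGFb. Per 100 CPM of these markers the P450 genes gave 19.8 and 20.5 CPM in WT, 15.9 and 15.5 in Smad4 KO, and 15.6 and 15.8 with TGFb. Over the same groups the 14 crypt base stem cell markers summed to 8259 to 8338, 4966 to 5004, and 3521 to 3533 CPM. The hepatocyte list summed to 18.4 to 20.2, 20.5 to 21, and 9.83 to 10.6 CPM, with Fgb and Ahsg at 0. In bulk RNA, fewer cells of a type and less RNA per cell cannot be told apart, and the part of these markers in the P450 results was not tested.

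**Figure D5:**
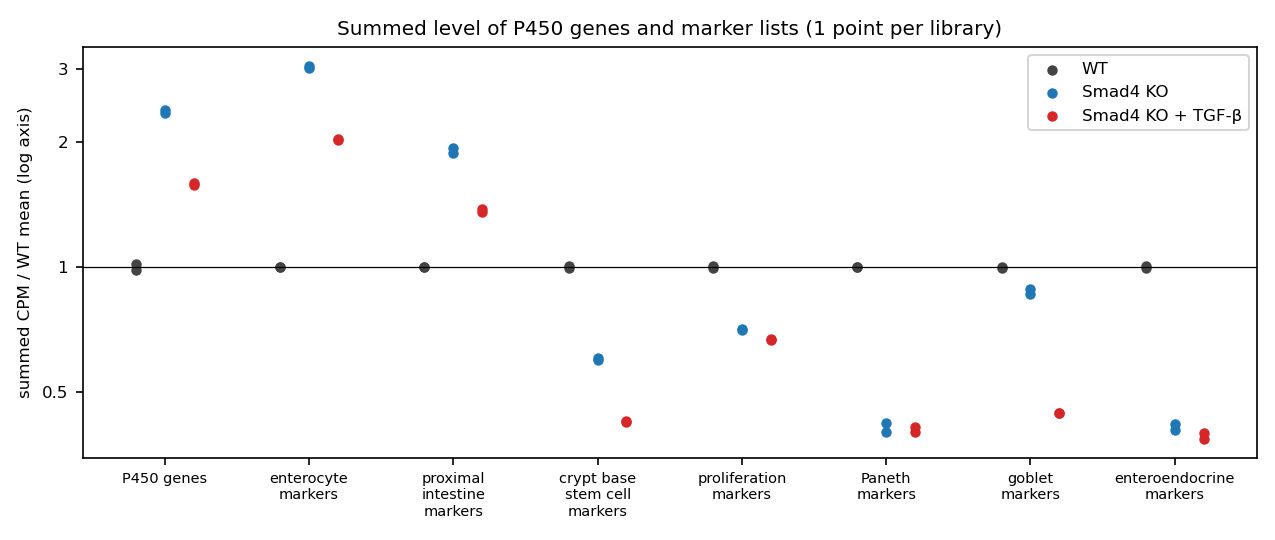
Summed CPM of the 99 P450 genes and of 7 marker lists in each library, divided by the WT mean (log axis). In Smad4 KO the P450 sum was 2.37 times WT and the enterocyte sum 3.04 times, and both were lower with TGFb. The stem cell, proliferation, Paneth, goblet and enteroendocrine sums lay below WT in both Smad4 KO groups.

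Members that were tested but passed in no comparison numbered 15. Cyp20a1, an orphan P450 of unknown substrate, was the highest of them, at 26.2 and 22.6 CPM in WT, 24.3 and 21.8 in Smad4 KO, and 22.2 and 21.5 with TGFb. Cyp2d22 followed, at 7.96 to 16 CPM over the 6 libraries, and the other 13 stayed under 3 CPM in each library.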

How the data were processed

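Bulk RNA-seq of 6 libraries was used. The authors deposited estimated counts per Ensembl gene as whole numbers. The tools named are StringTie 1.3.3b, HISAT2 2.1.0, FastQC 0.11.9 and SAMtools 1.9, with the build GRCm38, per the submitters' processing notes. Not given in the sources used here are the strand setting, the annotation release and the conversion to whole numbers. Multiples of 4 made up 42.3% of values between 1 and 24 (25% if spread evenly), so a fragment was taken as 4 units, an inference on which the floors rest. They cover counting error only.

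Symbols came from GENCODE vM21 (31207 of 31227 rows matched). edgeR 4.0.16 (R 4.3.3) was fitted to all 6 libraries by group after filterByExpr (15503 genes kept) and TMM scaling, with the 2-sided quasi-likelihood test and Benjamini-Hochberg adjustment over all genes tested. It left 3 residual degrees of freedom. Adjusted p means this test throughout. The fit was also run on data simulated from its own means and dispersions, with 200 changed genes in each simulation. Far more genes were called in the real data, so these runs cannot show how the fit behaves there. CPM is per 1e6 scaled units. CPM per kb divides by the merged length of all annotated exons of a gene. Protein identities were computed with Biopython 1.88.

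Members given in every library passed in any comparison and reached a mean of 5 CPM in a group, with a few others named as stated. From each partner list, passing genes of at least 5 CPM were named, at most 4 by adjusted p, plus Por, Ahr, Nr1i2 and Hnf4a. Members and lists were chosen with earlier results of these data known. Alternatives were DESeq2 1.42.0, size-factor scaling, no filter, values divided by 4, only the 4 libraries compared, a replicate block, and each library left out. Cyp51 and the noncoding Cyp4x1os were left out by the rule.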

Additional observations from a re-analysis of the deposited data

How the results depend on the processing

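No called member changed direction in any alternative. Of the calls, 20 of 24 (Smad4 KO against WT), 15 of 23 (treated against Smad4 KO) and 17 of 27 (treated against WT) held in every alternative that tested them. The number lower in Smad4 KO was 3, but 6 with DESeq2, 5 with values divided by 4 and 5 with only the 4 libraries compared. On leaving out 1 library, the number higher with TGFb than in Smad4 KO ran from 1 to 3 (1 without Smad4 KO replicate 1, treated replicate 1 or treated replicate 2), and the number lower than in WT from 4 to 9 (4 without WT replicate 1, 5 without WT replicate 2). The summed WT level of 1676 CPM was 1305 without near-identical members and 1411 without Cyp4f14. Same-numbered libraries did not deviate together (r = 0, 0.01 and 0.01). This shows no shift shared by number, but cannot tell whether such libraries were cultured or prepared together, and the labels do not say. With a replicate block the counts were 20 higher and 3 lower, 2 and 19, and 17 and 8 in the order of comparisons above, against 21 and 3, 3 and 20, and 18 and 9 without it. The 3 residual degrees of freedom and low counts limit members under 5 CPM most.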
